A study of Mus musculus with 27 samples.

Results

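The constitutive proteasome genes are described here in alveolar macrophages sorted from mouse lungs during acute injury. Members were taken by gene symbol: protein-coding genes whose symbol begins with Psma, Psmb, Psmc or Psmd followed by a digit, without pseudogenes, without the inducible subunits Psmb8, Psmb9 and Psmb10, and with at least 1 CPM (read counts scaled to library size) in 3 or more libraries. This gave 36 genes of the 38124 in the count table. They were 8 alpha-ring genes (Psma1 to Psma8), 7 beta-ring genes (Psmb1 to Psmb7), 6 ATPase genes of the regulatory base (Psmc1 to Psmc6), 11 non-ATPase genes of the regulatory particle (Psmd1, Psmd2, Psmd3, Psmd4, Psmd6, Psmd7, Psmd8, Psmd11, Psmd12, Psmd13 and Psmd14), and 3 genes for chaperones that assist base assembly (Psmd5, Psmd9 and Psmd10). The last match, Psmc3ip, is not a proteasome subunit but a meiotic recombination factor whose symbol fits the pattern. Psmb11, the thymus-specific beta subunit, was left out by the CPM rule, with 2 counts in all 27 libraries together.

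The series measured polyadenylated RNA of 2 macrophage populations from C57B/6 mice, 8 to 14 weeks old, washed from the airspaces by bronchoalveolar lavage and separated by flow cytometry. Resident macrophages (CD11c+CD11b-) came from untreated mice, called day 0, and from days 3, 6, 9 and 12 after intratracheal lipopolysaccharide (LPS, 20 ng in 50 microliters of saline), a bacterial cell wall component that causes acute lung injury. Recruited macrophages (CD11c-CD11b+) came from days 3, 6, 9 and 12 after LPS, and have no untreated counterpart. The 9 groups had n = 3 libraries each, and the labels do not say whether these came from separate or pooled animals, so the tests speak only to the spread among these libraries, which may be technical in part.

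The proteasome degrades proteins tagged with ubiquitin. Its barrel-shaped core stacks alpha rings, which gate the entrance, on beta rings, in which Psmb5, Psmb6 and Psmb7 carry the proteolytic sites. A regulatory particle caps the barrel: its ATPases unfold substrates and thread them into the core, and its non-ATPase subunits bind and remove ubiquitin. In macrophages and other immune cells, interferon gamma and other inflammatory signals induce Psmb8, Psmb9 and Psmb10, which replace Psmb5, Psmb6 and Psmb7 in newly built cores, the immunoproteasome, and favour peptides for presentation on class I histocompatibility molecules. Transcription of constitutive subunit genes is known to be raised by Nfe2l1, which binds antioxidant response elements, when proteasome activity falls short.

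Promoter sequence was available in RefSeq (GRCm38.p6) for 29 of the 36 members. In the 250 bases before the annotated start, the core of the antioxidant response element (TGACNNNGC, both strands) was found in 5 of these 29 (17.2%), against 11.5% of 27025 genes with a promoter entry. The CCAAT box (CCAAT, both strands) was found in 12 of 29 (41.4%), against 37.5% of all. A match is a description of the sequence and not a measured binding site. Matches to the element core are shown in full because Nfe2l1 is known to bind antioxidant response elements. Matches are in capitals, 5′ to 3′ on the strand of the gene, with 20 bases on either side where the searched window allows. They lay at chr14:54618014-54618062 (minus strand, Psmb5), chr11:70525328-70525356 (plus, Psmb6), chr14:45329577-45329625 (plus, Psmc6), chr11:107479278-107479309 (plus, Psmd12) and chr5:123228139-123228187 (plus, Psmd9). The capitals of Psmc6 and Psmd12 are the core read on the opposite strand.
Psmb5: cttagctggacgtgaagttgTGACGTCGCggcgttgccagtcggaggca
Psmb6: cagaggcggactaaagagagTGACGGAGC
Psmc6: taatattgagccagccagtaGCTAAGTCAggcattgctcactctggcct
Psmd12: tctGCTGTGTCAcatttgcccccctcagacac
Psmd9: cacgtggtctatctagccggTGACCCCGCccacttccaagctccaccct

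The CCAAT matches of Psmd10, Psma2 and Psma6 closest to the start are shown because these members had some of the largest differences between days described below. Psma5, Psmb4, Psmb5 and Psmb7, also among the larger differences, are not among the 12 members found with the box. Promoter sequence was lacking for 7 of the 36 members, so a place outside the 12 can also mean not searched. Psmb5 was searched, as its element match above shows. Psmc3ip, not called between day 3 and day 6 in recruited cells, is among the 12. A link between the box and the differences was not tested. They lay at chrX:140956712-140956755 (minus strand, Psmd10), chr13:14613168-14613212 (plus, Psma2) and chr12:55384173-55384217 (plus, Psma6), and that of Psmd10 is the box read on the opposite strand.
Psmd10: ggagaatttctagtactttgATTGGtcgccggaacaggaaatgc
Psma2: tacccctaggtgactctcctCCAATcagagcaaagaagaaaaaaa
Psma6: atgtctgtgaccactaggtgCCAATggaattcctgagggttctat

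Libraries held 11093216 to 18299674 counts (median 14859352), of which the members took 0.229% to 0.422%, or 25508 to 65060 counts. Summed levels of 8 resident alveolar macrophage markers were 15368 to 33355 CPM in resident and 2170 to 10330 CPM in recruited libraries, and those of 6 monocyte-derived markers 45.8 to 643 and 5682 to 25050 CPM. The populations were therefore apart on both lists, in the direction of their labels. The sort itself enters these lists, since they hold the genes of its markers, Itgax (CD11c) in the first and Itgam (CD11b) in the second. Summed neutrophil markers (8 genes) were highest in recruited cells on day 3, at 189 to 502 CPM, against 125 to 270 CPM on later days, with Ly6g, a defining neutrophil gene, at 0 in every recruited library after day 3 and at 0.0675 to 0.314 CPM on day 3. Lymphocyte markers summed to at most 15.6 CPM for T and NK cells and 4.19 CPM for B cells, and epithelial markers to at most 204 CPM, in untreated resident cells. Recruited day 6 replicate 2 had the highest share of uniquely aligned reads that the counting assigned to no feature, 26.5%. The median over the 27 libraries was 9.70%.

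All 36 members passed the filter on low counts, and a comparison was called when edgeR's adjusted p was under 0.05. Levels between genes are compared per kilobase of annotated exon, which understates genes with long rarely used exons. On that scale, the median over libraries was highest for Psma6 (80.3 CPM per kilobase), an alpha-ring subunit, Psmb5 (70.6) and Psmd2 (63.8), the large scaffold subunit of the base. The beta ring had a median of 50.2 CPM per kilobase over its genes (range 18.5 to 70.6), the base ATPases 37.2 (15.9 to 50.8), the alpha ring 23.6 (0.904 to 80.3) and the non-ATPase subunits 21.4 (12.5 to 63.8). The assembly chaperones were lower, at 3.06 to 17.3 CPM per kilobase. Psma8, the testis-type alternative to Psma7, had 0.706 to 3.92 CPM and Psmc3ip 0.628 to 5.15 CPM, so both were near the low end of what was counted. Among the other 34, the highest library exceeded the lowest by 1.52-fold (Psmd5) to 5.04-fold (Psma5).

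**Figure D1:**
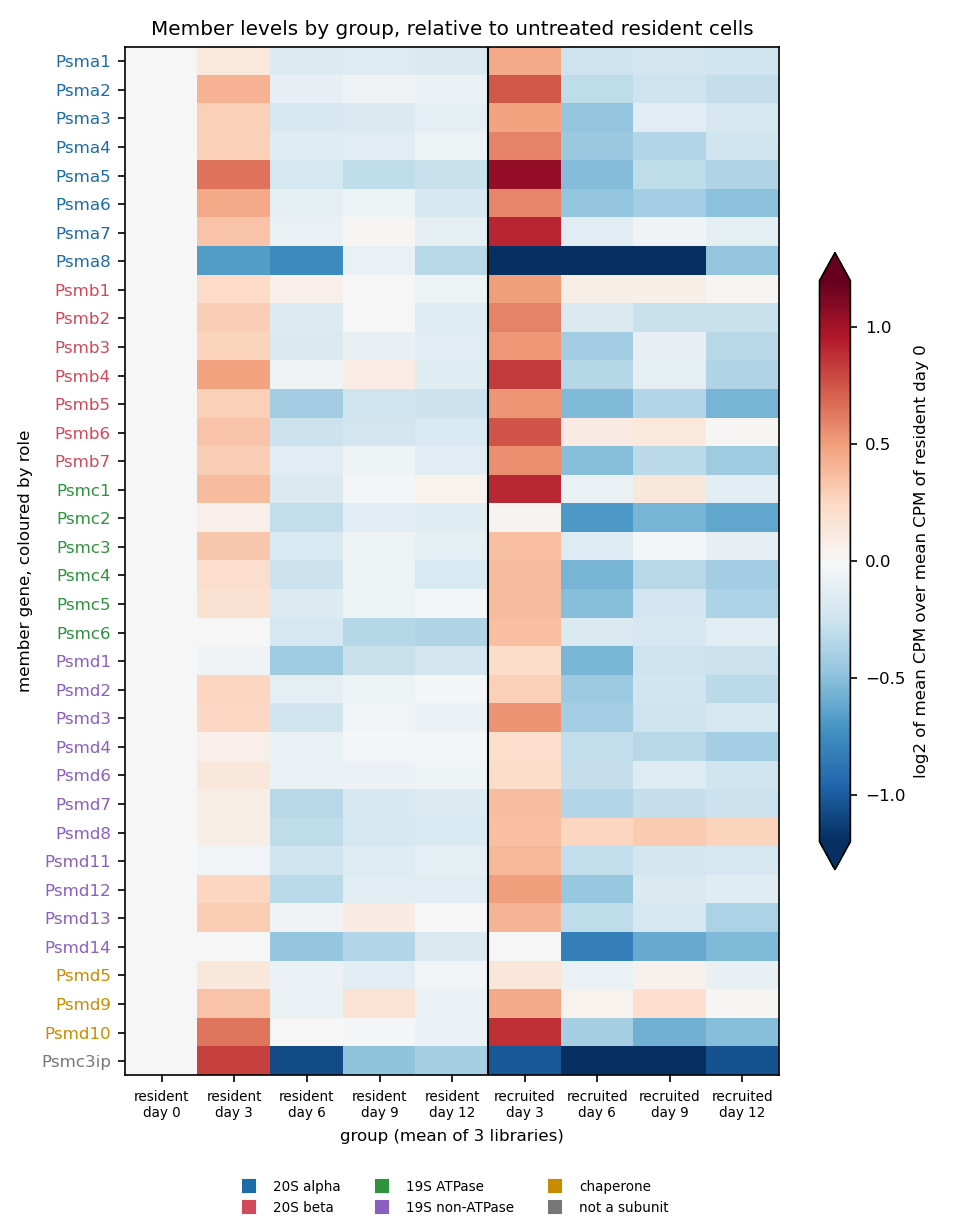
Mean level of each of the 36 members in the 9 groups (columns), as log2 of mean CPM over the mean CPM of untreated resident cells (colour; 3 libraries per group; the scale ends at 1.2 in either direction). Day 3 columns are mostly red in both populations, and the recruited columns of days 6, 9 and 12 are mostly blue, apart from Psmd8, Psmb1, Psmb6 and Psmd9, which stay above 0 in all 3 of them.

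The widest differences lay within recruited macrophages, between day 3 and later days. Of the 36 members, 32 were lower on day 6 than on day 3 and 0 were higher, against 16.8% of all 13599 tested genes lower and 15.1% higher. The median change of the members was -0.77 on the log2 scale, against 0.01 for all genes. On day 9, 30 were lower and 0 higher (all genes 18% lower, 18.2% higher, median of members -0.62), and on day 12, 31 were lower and 1 higher (all genes 19.5% lower, 19.8% higher, median -0.69). These 3 comparisons share the day 3 libraries. Summed over members, the level was 3957, 3989 and 4485 CPM in the 3 day 3 libraries, 2265 to 2699 CPM on day 6, 2435 to 3051 CPM on day 9 and 2460 to 2655 CPM on day 12, so the day 3 libraries were above all others of the population. In sorted bulk RNA, fewer cells that carry a transcript and less of it per cell cannot be told apart. Leaving out any single library gave 31 to 32 members lower on day 6, 27 to 31 on day 9 and 30 to 32 on day 12, with 31 on day 6 without replicate 2 of that day. The share of neutrophil transcripts moved in the same direction, and its part in the differences was not tested. S100a8, a neutrophil calprotectin gene, was at 86.2 CPM in the day 3 library with a summed member level of 3957 CPM, and at 188 and 202 CPM in the others of that day.

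In the alpha ring, 7 of 8 genes fell from day 3 to day 6 in recruited cells, by a median of 1.04 on the log2 scale over all 8. Psma5 (ENSMUSG00000068749, chromosome 3, 108256926 to 108279974, plus strand, GRCm38) had 45.1, 53.4 and 59.8 CPM on day 3 and 11.9, 22.4 and 19 CPM on day 6. Every day 3 library was above every day 6 library, and the fitted fall was 2.98-fold (log2 change -1.57, SE 0.24, adjusted p = 2.35e-05). It was the member with the largest change. Psma6 (ENSMUSG00000021024, chromosome 12, 55384222 to 55418454, plus strand) went from 156, 152 and 181 CPM to 70.6, 71.5 and 92.7 CPM (log2 change -1.06, SE 0.14, adjusted p = 4.37e-06). Psma2, Psma4 and Psma7 fell by 1.06, 1.04 and 1.04 on the log2 scale, and Psma1 and Psma3 by 0.71 and 0.95. The alpha ring was thus lower throughout, apart from Psma8, which had 1.15 ± 0.447 CPM (SD, n = 3) on day 3 and 1.13 ± 0.463 CPM on day 6. Psma8 was the 1 member higher on day 12 than on day 3, at 2.42 ± 0.0797 CPM (log2 change 1.06, SE 0.33, adjusted p = 0.0124), a call lost without recruited day 3 replicate 2, at adjusted p = 0.076, and with only the 2 groups fitted, at adjusted p = 0.0573.

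All 7 beta-ring genes fell from day 3 to day 6, and all 7 were lower on days 9 and 12 as well, although the day 9 call of Psmb6 was lost without recruited day 3 replicate 1 or day 9 replicate 1 or 3 (adjusted p = 0.0527 to 0.0968). The largest fall was that of Psmb4 (ENSMUSG00000005779, chromosome 3, 94884093 to 94886961, minus strand), a non-catalytic subunit that closes the ring late in assembly. It had 177, 168 and 203 CPM on day 3 and 63.6, 78.9 and 97.9 CPM on day 6, with no overlap (2.28-fold, log2 change -1.19, SE 0.18, adjusted p = 2.69e-05). Psmb5 (ENSMUSG00000022193, chromosome 14, 54614119 to 54618022, minus strand), the chymotrypsin-like site, had 111, 97.5 and 134 CPM on day 3 against 43.6, 60.0 and 60.6 CPM on day 6. Its fall was 2.08-fold (log2 change -1.06, SE 0.21, adjusted p = 0.000546). Psmb7 (ENSMUSG00000026750, chromosome 2, 38588036 to 38644087, minus strand), the trypsin-like site, went from 111, 95.8 and 111 CPM to 43.4, 45.2 and 61.9 CPM, a 2.11-fold fall (log2 change -1.08, SE 0.16, adjusted p = 2.35e-05). Both were below their day 3 libraries in all later recruited libraries. Psmb6 (ENSMUSG00000018286, chromosome 11, 70525367 to 70527858, plus strand), the caspase-like site, fell less, from 191, 168 and 182 CPM to 129, 101 and 113 CPM (1.58-fold, log2 change -0.66, SE 0.20, adjusted p = 0.0168), and the call was lost without recruited day 6 replicate 2, at adjusted p = 0.0882. The differences between the falls of the catalytic genes were not tested. Psmb1 had the smallest fall of the ring, at 0.43 on the log2 scale.

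**Figure D2:**
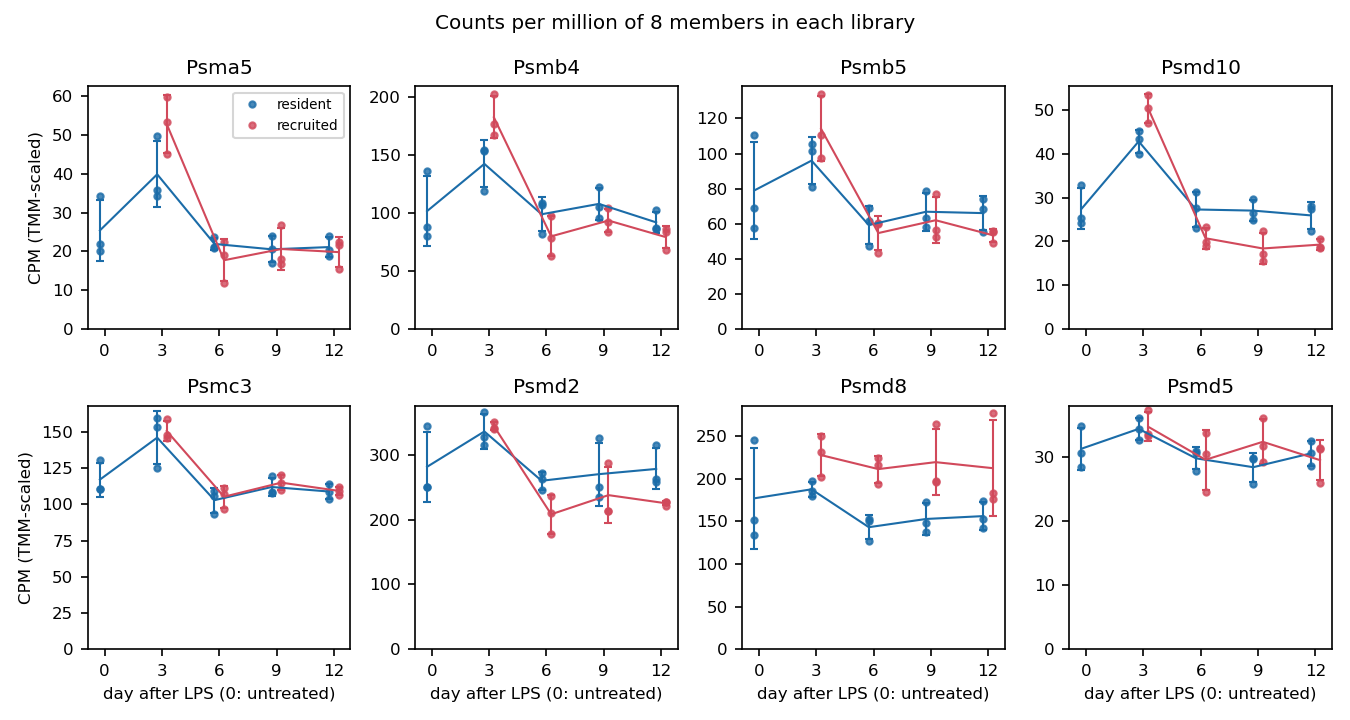
CPM of 8 members in each library (points) by day after LPS, with the mean and SD of 3 libraries per group (lines and bars), in resident (blue) and recruited (red) macrophages; all axes start at 0. Psma5, Psmb4, Psmb5, Psmd10, Psmc3 and Psmd2 drop from day 3 to day 6 in recruited cells, whereas Psmd8 and Psmd5 have overlapping libraries on those days.

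All 6 base ATPase genes also fell from day 3 to day 6, by 0.52 to 0.98 on the log2 scale. Psmc1 went from 106, 122 and 141 CPM to 50.1, 59.4 and 78.2 CPM, and Psmc2 from 106, 108 and 101 CPM to 60.2, 59.0 and 71.6 CPM. Psmc3 changed least of the 6, from 148, 146 and 159 CPM to 97, 107 and 112 CPM (log2 change -0.52, SE 0.10, adjusted p = 0.000237). Among non-ATPase genes, 10 of 11 fell on day 6. Psmd2 went from 341, 340 and 351 CPM to 177, 210 and 237 CPM (log2 change -0.73, SE 0.15, adjusted p = 0.000547). Psmd14, the deubiquitinase that strips ubiquitin from substrates, went from 61.8, 73.2 and 84.2 CPM to 36.2, 35.8 and 52.2 CPM, and the ubiquitin receptor Psmd4 from 115, 133 and 141 CPM to 88.1, 98.4 and 87.7 CPM. The groups did not overlap for any of the 16 genes of these sets that were called.

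Psmd8 (ENSMUSG00000030591, chromosome 7, 29174188 to 29180701, minus strand), a lid subunit, was the exception among regulatory subunits. It had 202, 232 and 250 CPM in recruited cells on day 3 and 216, 194 and 224 CPM on day 6, which overlapped (log2 change -0.11, SE 0.19, adjusted p = 0.70). It also missed the threshold on days 9 and 12 (log2 changes -0.05 and -0.10). Psmd1 and Psmd5 missed it on both of these days, and Psmd9, Psma8 and Psmc3ip on day 9. On day 12, where Psmc3ip also missed it, Psmd1 had 161 CPM in recruited day 12 replicate 1 and 112 and 108 CPM in the others (log2 change -0.48, adjusted p = 0.057).

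The assembly chaperones differed among themselves. Psmd10 (ENSMUSG00000031429, chromosome X, 140948429 to 140956728, minus strand), also known as gankyrin, had 53.4, 47.0 and 50.4 CPM on day 3 and 19.8, 19 and 23.4 CPM on day 6 in recruited cells. Its 2.42-fold fall (log2 change -1.28, SE 0.14, adjusted p = 5.5e-07) was the second largest of the members, and on day 9 it was the largest (log2 change -1.45, SE 0.14, adjusted p = 6.45e-08). Psmd9 fell from 29.1 ± 3.27 to 21.9 ± 0.29 CPM (SD, n = 3), by 0.41 on the log2 scale. Psmd5 had 34.6 ± 2.28 and 29.5 ± 4.68 CPM, and its change of -0.23 (SE 0.12) missed the threshold at adjusted p = 0.144. Psmc3ip had 1.26 ± 0.546 CPM on day 3 and 0.962 ± 0.246 CPM on day 6 (adjusted p = 0.512).

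**Figure D3:**
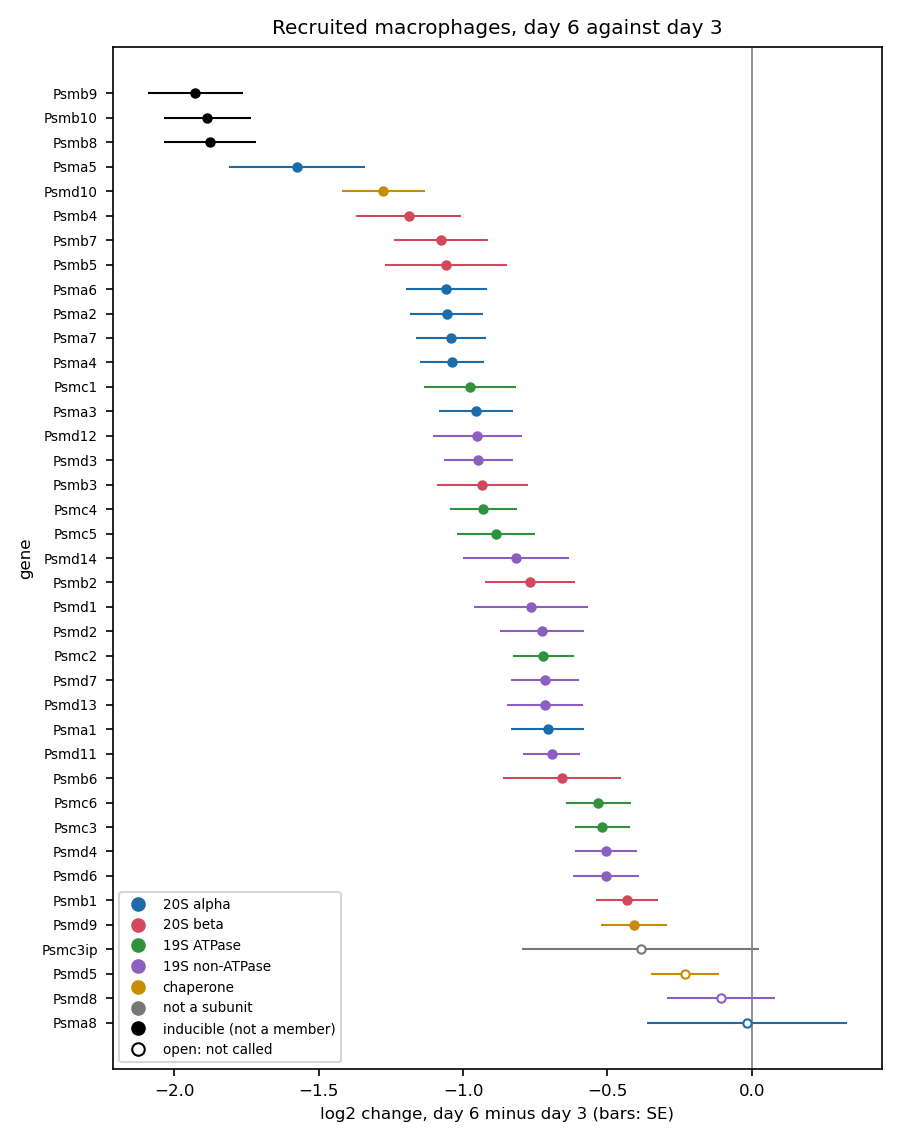
log2 change from day 3 to day 6 in recruited macrophages, with SE, for the 36 members (coloured by role) and the 3 inducible catalytic genes (black); open points were not called. The inducible genes have the largest falls, between 1.88 and 1.93, followed by Psma5, Psmd10 and Psmb4, and the open points are Psmc3ip, Psmd5, Psmd8 and Psma8.

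In resident macrophages the same genes were compared with untreated cells. On day 3 after LPS, 7 of 36 members were higher than on day 0 and 0 lower, against 13.3% of all genes higher and 10.5% lower, and the median change was 0.26 against 0.00 for all genes. Summed monocyte-derived markers (6 genes) moved in the same direction in these libraries, from 45.8 to 52.6 CPM on day 0 to 395 to 643 CPM on day 3, with Itgam, which encodes CD11b, at 5.05 to 10.3 and 329 to 513 CPM. Summed neutrophil markers (8 genes, 2 of them at 0 on day 0) were at 43.7 to 64.5 and 128 to 150 CPM, and the part of either list in the result was not tested. The called members were Psma2, Psma5, Psma6 and Psma7 of the alpha ring, the ATPase gene Psmc3, and the chaperone genes Psmd9 and Psmd10. Psmd10 had 32.8, 24.1 and 25.3 CPM on day 0 and 43.4, 39.9 and 45.1 CPM on day 3 (1.56-fold, log2 change 0.64, SE 0.14, adjusted p = 0.00207). Every day 3 library was above every day 0 library for Psmd10, and the same held for Psma6 (log2 change 0.46, SE 0.14), Psma2 (0.41, SE 0.13) and Psmd9 (0.34, SE 0.11). Psma5 rose by 0.65 on the log2 scale (SE 0.23, adjusted p = 0.0437), but its libraries overlapped, at 34.3, 21.9 and 20.1 CPM on day 0 and 35.7, 34.3 and 49.6 CPM on day 3. The constitutive catalytic genes had changes of 0.28 (Psmb5), 0.35 (Psmb6) and 0.30 (Psmb7), none past the threshold (adjusted p = 0.35, 0.231 and 0.184), with overlapping libraries.

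The count of 7 depended on single libraries. Day 0 replicate 1 had a summed member level of 3601 CPM, within the day 3 range of 3235 to 3849 CPM, whereas the other day 0 libraries had 2676 and 2710 CPM. Without day 0 replicate 1 the number called higher was 14. It was 1 without day 0 replicate 2 or 3 or day 3 replicate 3, and 3 without day 3 replicate 1. The calls of Psma2 and Psma6 were lost without day 0 replicate 2 or 3 or day 3 replicate 3, that of Psmd9 without any of 5 libraries (all but day 0 replicate 1), and that of Psmd10 was kept in each case.

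On later days no member of the resident cells was called against day 0 in either direction. Before adjustment, edgeR gave p under 0.05 for 9 members on day 6, 1 on day 9 and 1 on day 12, all lower, and DESeq2 called 0 on each day. Backgrounds were 3.77% higher and 2.65% lower on day 6, 1.61% higher and 1.88% lower on day 9, and 1.1% higher and 0.206% lower on day 12. The summed level was 2401 to 2761 CPM on day 6, 2616 to 3152 CPM on day 9 and 2625 to 2979 CPM on day 12.

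Between day 3 and day 12 the resident cells were compared in the same way as the recruited cells. Of the 36 members, 15 were lower on day 12 and 0 higher, against 12.9% of all genes lower and 11.3% higher, with a median change of -0.35 against 0.01. Summed monocyte-derived markers were lower on day 12 as well (91.0 to 257 CPM, against 395 to 643 CPM on day 3), and summed neutrophil markers were at 48.2 to 133 CPM against 128 to 150 CPM, with 4 of 8 genes at 0 on day 12. Their part in the result was not tested. Psma5 fell by 0.92 on the log2 scale (SE 0.23, adjusted p = 0.00626), from 39.8 ± 8.46 to 21.1 ± 2.64 CPM (SD, n = 3), a call lost without day 3 replicate 3 at adjusted p = 0.054. Psmd10 fell by 0.72 (SE 0.14, adjusted p = 0.000812), Psma6 by 0.65 (SE 0.14), Psmb4 by 0.63 (SE 0.18) and Psma2 by 0.49 (SE 0.13). The call of Psmb4 was lost without day 3 replicate 1 or 3 or day 12 replicate 2 or 3. The low-count gene Psmc3ip fell most, by 1.22, from 5.05, 3.25 and 5.15 CPM to 2.1, 1.76 and 1.9 CPM. Its call was lost without any of 4 of the 6 libraries (adjusted p up to 0.0713). By role, 6 of 8 alpha-ring genes were lower, 2 of 7 beta-ring genes, 3 of 6 ATPase genes and 1 of 11 non-ATPase genes. The others lower were 2 of 3 assembly chaperone genes and Psmc3ip. The differences between roles were not tested. Psmb5, Psmb6 and Psmb7 had changes of -0.54, -0.53 and -0.42 and missed the threshold (adjusted p = 0.0641, 0.0614 and 0.0564), although no library overlapped. The number lower was 5 without day 3 replicate 3, and 9 and 6 without day 12 replicates 2 and 3.

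Across the 36 members, the change from day 3 to day 12 in resident cells and that in recruited cells had a Pearson correlation of 0.52 (Spearman 0.60), and 0.76 (Spearman 0.70) over the 34 without Psma8 and Psmc3ip. All points of a comparison come from the same 6 libraries and their scaling. The comparisons share no library but are not independent, since resident and recruited libraries of the same day and number deviated together, and the part of this in the correlation was not tested. Psma5, Psmd10, Psmb4 and Psma6 were among the members with the largest falls in both.

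**Figure D4:**
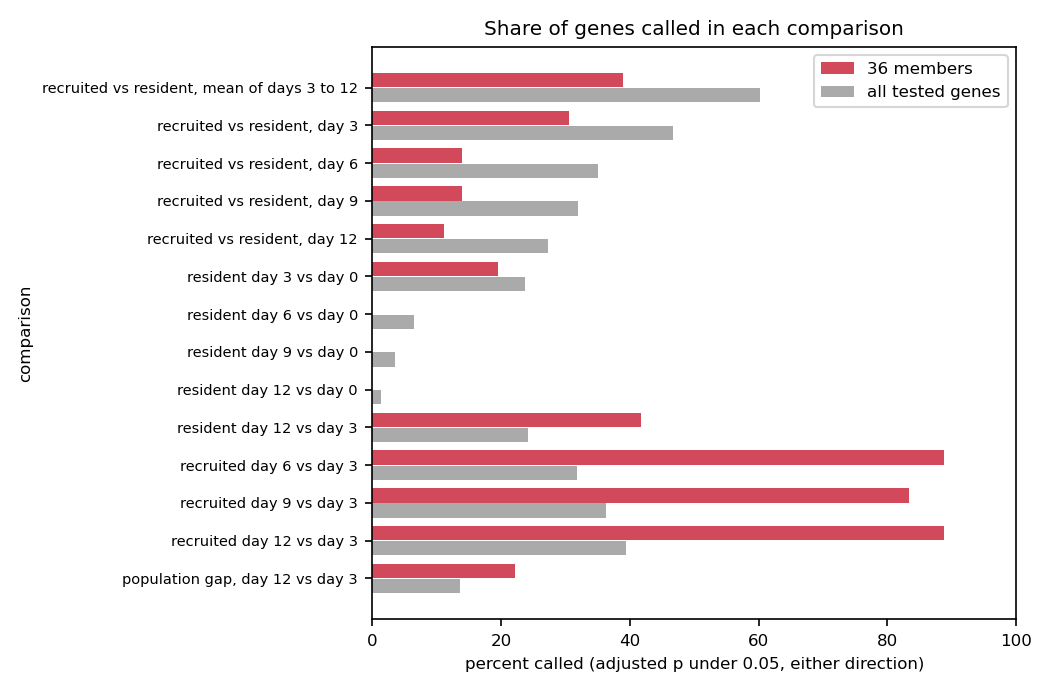
Percent of the 36 members (red) and of all 13599 tested genes (grey) called in either direction in each comparison. The members' share is 80% or more in the 3 recruited comparisons with day 3, where under 40% of all genes were called, and 0% in resident cells on days 6, 9 and 12 against day 0.

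Recruited and resident cells were then compared on the same days. Averaged over days 3 to 12, 3 members were higher in recruited cells and 11 lower, against 30.3% and 30% of all genes. In either direction this was 38.9% of the members and 60.3% of all genes. Psmd8 was higher in recruited cells by 0.45 on the log2 scale (SE 0.09, adjusted p = 0.000217). Its lowest recruited and highest resident libraries were 202 and 197 CPM on day 3, 194 and 152 on day 6, 196 and 173 on day 9, and 176 and 174 on day 12, so the populations were apart on each day. The other 2 members higher were Psmb6 (0.33, SE 0.10, adjusted p = 0.00797) and Psmc6 (0.19, SE 0.06, adjusted p = 0.00539), with overlap on at least 1 day. Psmc2, an ATPase gene, was lower by 0.33 (SE 0.05, adjusted p = 9.27e-06), and so were Psma6, Psma8, Psmc3ip, Psmc4, Psmc5, Psmd2, Psmd4, Psmd10, Psmd13 and Psmd14. Psmb5 and Psmb7 missed the threshold (-0.07, SE 0.10, and -0.17, SE 0.08). The number higher was 5 without resident day 6 replicate 1 or day 9 replicate 2, and the number lower 7 without resident day 6 replicate 3 or day 9 replicate 2.

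On day 3 the balance was different. There 9 members were higher in recruited cells and 2 lower, against 23.2% of all genes higher and 23.5% lower, with a median of 0.25 against 0.05. The number higher was thus near the share of all genes, and the number lower was below it. In either direction 30.6% of the members and 46.6% of all genes were called. Psma7 had 109, 89.7 and 113 CPM in resident and 150, 144 and 171 CPM in recruited cells (1.49-fold, log2 difference 0.58, SE 0.12, adjusted p = 0.000368). Psmd11, a lid subunit that contacts the core, had 81.3, 80.4 and 99.9 against 109, 125 and 121 CPM (1.36-fold, log2 difference 0.44, SE 0.10, adjusted p = 0.000811). Psmc1 was higher by 0.52 (SE 0.16, adjusted p = 0.00881, lost without recruited replicate 3 at adjusted p = 0.0599) and Psmc6 by 0.36 (SE 0.11, adjusted p = 0.0112, and 0.0679 with scaling by library size alone). Psma1, Psma2, Psma4, Psmb1 and Psmd3 were higher by 0.27 to 0.33. The 2 lower were the low-count genes Psma8 (1.15 against 2.11 CPM) and Psmc3ip, which had 5.05, 3.25 and 5.15 CPM in resident and 1.89, 0.942 and 0.946 CPM in recruited cells (log2 difference -1.82, SE 0.37, adjusted p = 0.000334). The call of Psma8 was lost without resident replicate 1 or 3 or recruited replicate 1 or 2, which leaves 1 lower. The number higher was 4 without resident replicate 1 or 2 and 3 without recruited replicate 3, and it was 3 with scaling by library size alone. Neutrophil markers were also higher in the recruited libraries on day 3 (189 to 502 against 128 to 150 CPM), and their part in these differences was not tested.

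From day 6 on, a smaller share of the members than of all genes was called without pairing, and most called members were lower in recruited cells. In either direction 13.9%, 13.9% and 11.1% of the members were called on days 6, 9 and 12, against 35%, 32% and 27.3% of all genes. On day 6, 1 was higher and 4 lower (all genes 16.2% higher, 18.8% lower), on day 9 1 higher and 4 lower (15.5% and 16.4%), and on day 12 0 higher and 4 lower (12.6% and 14.7%). In a fit that pairs resident and recruited libraries of the same day and number, the numbers were 2 higher and 13 lower on day 6, 2 and 13 on day 9, and 2 and 11 on day 12. Pairing also raised the number called among all genes, to 5721, 5430 and 4794 from 4758, 4350 and 3713 in either direction. The smaller share of the members is thus stated for the unpaired fit alone. For the count of 0 on day 12, edgeR gave 1 member higher with an unadjusted p under 0.05, and DESeq2 called 4 members in either direction. Psmc2 was lower on each of the 3 days, for example with 87.6, 77.3 and 84.9 CPM in resident and 60.2, 59.0 and 71.6 CPM in recruited cells on day 6 (log2 difference -0.39, SE 0.11, adjusted p = 0.00575), and without overlap on any of these days. Psma6 and Psmd10 were lower on day 6 (-0.37 and -0.39), both with overlapping libraries. Psmd10 was also lower on day 9 (-0.56, SE 0.14, adjusted p = 0.00432) and day 12 (-0.43, SE 0.14, adjusted p = 0.03), and Psmd4 by -0.31 and -0.38 on these days (adjusted p = 0.0288 and 0.0102). On day 9 the call of Psmd4 was lost without resident or recruited replicate 3, and on day 12 that of Psmd10 without resident or recruited replicate 1 or 2. Psma8 was lower on day 9 as well (-1.16, SE 0.31, adjusted p = 0.00586). Psma4 on day 6 (-0.29) and Psmd13 on day 12 (-0.38) each lost the call without any of 5 of the 6 libraries compared. Psmd8 was the member higher on days 6 and 9 (0.56 and 0.52, SE 0.19 for both, adjusted p = 0.022 and 0.0354). Its call was lost on day 6 without resident replicate 2 or recruited replicate 1 or 3 and on day 9 without resident replicate 1 or 3 or recruited replicate 2. The day 6 number lower was 1 without resident replicate 1 or 3 or recruited replicate 1 or 2, and 12 without recruited replicate 3. The day 9 number lower was 8 without recruited replicate 2. On day 12 it was 2 without resident replicate 1 and 1 without recruited replicate 1, where the calls of Psmd4 and Psmd10 were among those lost, and the number higher was 1 without recruited replicate 3.

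The change of the population difference over time was tested directly. From day 3 to day 12 the recruited minus resident difference was lowered for 8 members and raised for 0, against 6.24% and 7.38% of all genes. These were Psmc1, Psmd10, Psma7, Psma2, Psmd11, Psmd4, Psma4 and Psmc2, with shifts of -0.45 to -0.71 on the log2 scale. Psmd11 had the smallest adjusted p (-0.53, SE 0.14, adjusted p = 0.0143). For the count of 0 raised, 1 member passed at an unadjusted p under 0.05 by edgeR, and DESeq2 called 8 in all. With day and number paired, 16 were lowered, and 2946 of all genes were called in either direction, against 1853 without pairing. The number was 3, 1, 0 and 3 without resident day 3 replicates 1 and 2 and day 12 replicates 1 and 2, and 4, 1, 3, 2 and 4 without recruited day 3 replicates 2 and 3 and day 12 replicates 1, 2 and 3. With pairing, any change of the difference over days 3 to 12 was called for 11 members, with no number over all genes at hand. Without pairing it was called for 4 members (Psmd11, Psma4, Psma7 and Psmd10), against 10.7% of all genes. This number was 0 without resident day 3 replicate 1 or 2, day 6 replicate 1 or 3 or day 9 replicate 3, or recruited day 3 replicate 3 or day 6 replicate 1 or 2, and 1 without resident day 9 replicate 2, day 12 replicate 1 or recruited day 3 replicate 2.

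The inducible catalytic genes were measured in the same comparisons as their constitutive counterparts. Psmb8 had 109, 87.4 and 80.9 CPM in untreated resident cells and 249, 195 and 255 CPM on day 3 (log2 change 1.34, SE 0.16, adjusted p = 1.87e-06), and 480, 447 and 406 CPM in recruited cells on day 3 against 119, 134 and 110 CPM on day 6 (log2 change -1.88, SE 0.16, adjusted p = 9.44e-09). Psmb9 and Psmb10 rose by 1.47 and 1.13 in resident cells and fell by 1.93 and 1.89 in recruited cells over the same days. On day 3 all 3 were higher in recruited cells, by 0.93, 0.78 and 0.65. On day 6, Psmb8 and Psmb9 were still above untreated resident cells (log2 change 0.58 and 0.66, adjusted p = 0.0243 and 0.0147), whereas no member was. These calls were lost without resident day 0 replicate 3 or day 6 replicate 1, and that of Psmb8 also without day 0 replicate 2.

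The balance of each inducible gene to the one it replaces was taken as the log2 ratio of their counts in a library. Per library, Psmb8 to Psmb5 was -0.02, 0.34 and 0.50 in untreated resident cells, 1.30, 1.27 and 1.27 in resident cells on day 3, and 2.12, 2.20 and 1.60 in recruited cells on day 3. By day 12 it was 0.83 ± 0.24 in resident and 1.10 ± 0.14 in recruited cells (SD, n = 3). Psmb9 to Psmb6 was -1.43 ± 0.39 in untreated cells, -0.35 ± 0.14 and 0.00 ± 0.10 on day 3 in resident and recruited cells, and -1.01 ± 0.21 and -1.33 ± 0.61 on day 12. Psmb10 to Psmb7 was 0.21 ± 0.10 untreated, 1.02 ± 0.12 and 1.42 ± 0.12 on day 3, and 0.40 ± 0.34 and 0.53 ± 0.35 on day 12. All 3 ratios were thus higher on day 3 than in untreated cells in every library of either population. Averaged over days, recruited minus resident was 0.25 for Psmb8 to Psmb5 (exact two-sided permutation test within days, p = 0.0438, adjusted over the 3 ratios 0.0729), -0.29 for Psmb9 to Psmb6 (exact p = 0.0486, adjusted 0.0729) and 0.15 for Psmb10 to Psmb7 (exact p = 0.18). None passed after adjustment, and the recruited library was higher in 9, 3 and 9 of 12 pairs of the same day and number. The first ratio passed without recruited day 9 replicate 2, at a difference of 0.29. By day, Psmb9 to Psmb6 differed by 0.35 on day 3 and by -0.69, -0.50 and -0.32 on days 6, 9 and 12, so that the sign of the day 3 difference was opposite to the rest.

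**Figure D5:**
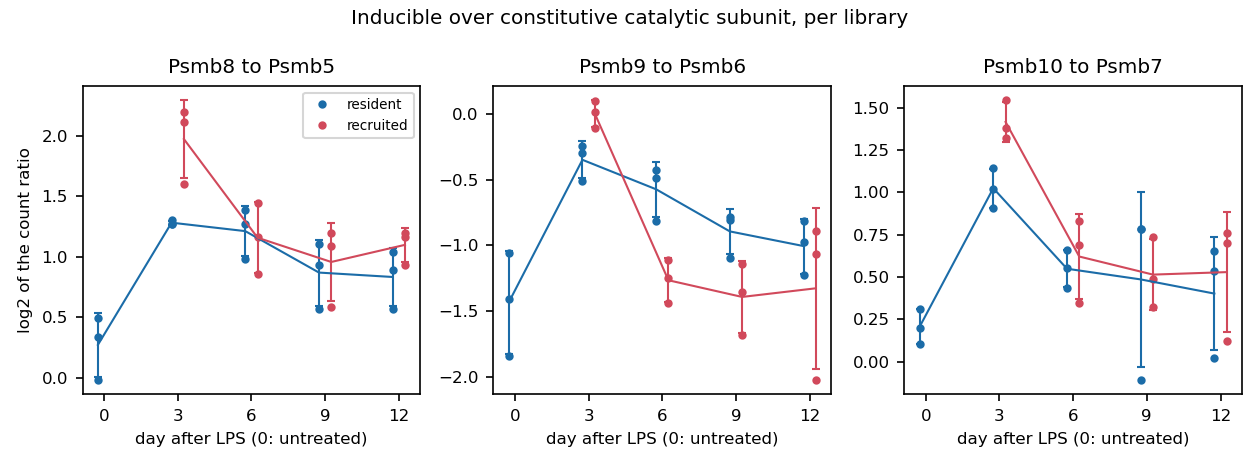
log2 ratio of counts of each inducible catalytic gene to its constitutive counterpart in each library (points), with mean and SD of 3 libraries (lines and bars), by day after LPS, in resident (blue) and recruited (red) macrophages. The mean of each ratio is highest on day 3 in both populations, where recruited libraries reach 2.20 for Psmb8 to Psmb5.

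Other genes of the pathway, 36 tested in 6 lists, changed in a mixed way. In recruited cells on day 6 against day 3, 18 were lower and 2 higher (all genes 16.8% and 15.1%), and on day 12, 16 lower and 3 higher (all genes 19.5% and 19.8%). Among caps that replace the regulatory particle, Psme2 and Psme1, the interferon-induced activator subunits, fell by 2.62 and 1.70 on the log2 scale on day 6, Psme2 from 182, 193 and 181 CPM to 26.6, 29.7 and 34.3 CPM. Pomp, the chaperone that matures the beta ring, fell by 1.16 (SE 0.15, adjusted p = 5.14e-06), and the ubiquitin-activating enzyme gene Uba1 by 0.79 (SE 0.09, adjusted p = 3.38e-07). Of 6 regulatory subunits and partners under other symbols, 2 were lower, Sem1 (log2 change -0.58) and Adrm1 (-0.49), a call lost with scaling by library size alone (adjusted p = 0.0613) and without recruited day 3 replicate 2 or 3 or day 6 replicate 1 (adjusted p = 0.0604 to 0.0692). In the Nfe2l1 pathway, Nfe2l1 itself was at 312, 309 and 267 CPM on day 3 and 291, 325 and 262 CPM on day 6 and was not called (log2 change -0.02, SE 0.10, adjusted p = 0.922). Ddi2, the protease that activates Nfe2l1, went the other way from the members, from 97.5, 91.3 and 85.1 CPM to 137, 170 and 152 CPM (log2 change 0.74, SE 0.12, adjusted p = 6.94e-05). It was the 1 gene called higher of the 7 in this list, whereas 4 were lower, and the median change was -0.38. Among the lower, Vcp went from 90.2, 111 and 118 CPM to 54.9, 62.6 and 81.6 CPM. Nploc4 went from 119, 143 and 142 CPM to 88.2, 98.9 and 106 CPM.

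In resident cells on day 3 against day 0, 8 pathway genes were higher and 3 lower, against 13.3% and 10.5% of all genes. The higher genes included the 3 inducible subunits, Psme2 (log2 change 1.63, SE 0.15), Psme1 (1.11, SE 0.11), Psmg1 (0.90, SE 0.17), a chaperone of alpha-ring assembly, and Pomp (0.58, SE 0.15, adjusted p = 0.00824, lost without day 0 replicate 3 or day 3 replicate 3). The lower genes were Ngly1, Nfe2l2 and Ddi2. The call of Ddi2 was lost without any of 5 of the 6 libraries (all but day 3 replicate 1), and that of Nfe2l2 without day 0 replicate 1 or day 3 replicate 2 or 3. Between populations over all days, 7 were higher and 7 lower in recruited cells, against 30.3% and 30% of all genes. The shuttle receptor genes Ubqln1 and Ubqln2, which carry ubiquitinated proteins to the proteasome, were lower in recruited cells by 0.69 and 0.65 (SE 0.05 for both, adjusted p = 4.75e-11 and 1.35e-10), without overlap on any day.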

How the data were processed

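RNA of 27 libraries was sequenced on an Ion Proton after a stranded mRNA kit, per the labels' protocols. The authors deposited raw read counts per Ensembl gene without normalization and a second table of unassigned-read counts, which stayed out of library sizes and tests. HTSeq 0.6.0, STAR 2.4.0a, R 3.1.0, DESeq2 1.4.5 and the build mm10 are named in the submitters' processing notes, with no role. Neither the strand option nor the annotation's release was given in these sources, so reads of overlapping antisense genes may be mixed in. Alignments to several places were 17.4% to 22.8% of all alignments, and the 3 pseudogenes with member symbols had 0 to 5 counts in all.

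Symbols, positions and exon lengths came from GENCODE M21 (GRCm38), which named 36345 of 38124 genes. Genes were filtered with edgeR's filterByExpr (minimum count 10, minimum total 15), leaving 13599. edgeR 4.0.16 in R 4.3.3 (TMM scaling, 9 group means over 27 libraries, robust quasi-likelihood F test, Benjamini-Hochberg over all genes, threshold 0.05) gave log2 changes, with SE from the F statistic. The script was tested on simulated data. Ratios were tested by exact permutation of populations within days (160000 assignments, smallest p = 1.25e-05). CPM are TMM-scaled.

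Equal replicate numbers were checked from the data: in all 12 pairs of a resident and a recruited library that share day and number, deviations from group means correlated (r = 0.166 to 0.518), each library best with its own number. A fit blocked by day and number is therefore printed where it moved a result. DESeq2 1.42.0, scaling by library size, no filter, only the groups compared, and single libraries left out were the other alternatives. A covariate for the run of numbers in column names (2 to 9, 12 to 18, 19 to 28, 34 to 53), whose meaning no label states, was chosen after seeing the data. Members, lists and tests were chosen with earlier results of these data known.

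Named in full were up to 6 members per comparison called without overlap, by size, the catalytic genes and their inducible counterparts, members called against the majority, and up to 3 called genes per pathway list. Other genes named were chosen after their values were seen: members outside the rule to cover each role, and Nfe2l1.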

Additional observations from a re-analysis of the deposited data

Results flagged for a closer look

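For 8 members (22.2%, against 13.6% of all genes) the recruited minus resident difference changed between day 3 and day 12 by edgeR's test of that change. The shift on the log2 scale was -0.71 for Psmc1, -0.66 for Psmd10, -0.57 for Psma7, -0.55 for Psma2, -0.53 for both Psmd11 and Psmd4, -0.49 for Psma4 and -0.45 for Psmc2. Days 3 to 12 were also tested together, in a test that includes the change from day 3 to day 12. There 4 of the 36 members were called, near the 10.7% of all genes. The adjusted p was 0.0276 for Psmd11, 0.0304 for Psma7, 0.033 for Psma4 and 0.0342 for Psmd10. None of these 4 calls was kept on leaving out certain single libraries, as given above. Of the single shifts, that of Psmd11 was lost on leaving out 1 library of 12 (resident day 12 replicate 1), and that of Psmc1 on leaving out 8 of 12.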

How the results depend on the processing

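In recruited cells against day 3, every alternative run gave 31 to 32 members lower on day 6, 25 to 32 on day 9 and 30 to 32 on day 12. Of 192 named calls, 58 were lost on leaving out some library and 42 under some other setting, and 0 changed sign. Where counts of calls moved, the cause was not tested. With a block by day and number, day 6 gave 2 higher and 13 lower in recruited cells, day 9 2 and 13, day 12 2 and 11, and the change of the population difference 16 lowered and 11 with any change. That block called more of all genes as well, 5721, 5430 and 4794 on these days and 2946 for the change from day 3 to day 12. A block by number alone, beside these, ended the call of Psma4 on day 6 (adjusted p = 0.0536). With the run covariate the average over days gave 5 higher, day 6 2 higher and 10 lower, day 9 8 lower, day 12 1 higher, resident day 3 against day 0 13 higher, resident days 6, 9 and 12 3, 2 and 1 lower, resident day 12 against day 3 26 lower, and the population difference 13 lowered and 9 changed. DESeq2 gave 5 higher for the average and 2 lower on day 6. Library size alone gave 3 higher on day 3, 7 lower on day 6 and 3 higher on resident day 3. It gave 6, 1 and 1 lower on resident days 6, 9 and 12, and 2 lowered and 0 changed for the difference. The median of all genes under it reached 0.15 on the log2 scale (recruited day 9 against day 3), against 0.03 with TMM scaling. Without a filter, day 3 had 5 higher and 1 lower, day 6 1 lower, resident day 3 4 higher, and the difference 2 lowered and 0 changed. With only the groups compared, day 3 had 5 higher and 1 lower, day 6 2 lower, day 9 0 higher and 2 lower, resident day 3 4 higher, resident day 6 1 lower, resident day 12 against day 3 24 lower, recruited day 12 0 higher, and the difference 2 changed. Leaving out single libraries gave 3 to 5 higher and 7 to 12 lower for the average, 3 to 10 and 1 to 2 on day 3, 0 to 1 and 1 to 12 on day 6, 0 to 1 and 3 to 8 on day 9, 0 to 1 and 1 to 3 on day 12, 1 to 14 higher on resident day 3, 5 to 17 lower for resident day 12 against day 3, 0 to 1 higher for recruited day 12 against day 3, 0 to 7 lowered and 0 to 6 changed for the difference, and 0.210 to 0.294 for the Psmb8 to Psmb5 ratio. Psma8 and Psmc3ip, under 6 CPM in every library, are limited by depth.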
